A study of Mus musculus with 56 samples.

Results

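The interferon regulatory factor (IRF) genes were followed through 56 lists of ChIP-seq peaks from mouse bone marrow-derived macrophages (BMDMs). The members were Irf1, Irf2, Irf3, Irf4, Irf5, Irf7, Irf8, and Irf9, and a peak was counted as theirs when the deposited annotation, which assigns a peak to the nearest transcription start, gave it that gene name. These 8 of the 20352 genes named in the lists held 2219 of 1610519 peaks.

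IRF proteins are transcription factors that share a DNA-binding domain and recognise the interferon-stimulated response element (ISRE), a repeat of the letters GAAA. IRF3, IRF5, and IRF7 are activated by phosphorylation below pattern recognition receptors and drive type I interferon and cytokine genes, and IRF9 is part of ISGF3, the complex that carries the type I interferon signal to the nucleus. IRF1 is an activator that responds to interferon and NF-κB, IRF2 binds the same elements and often opposes it, and IRF8 and IRF4 bind poorly alone and pair with factors such as PU.1. In macrophages IRF8 is a factor of lineage identity and inflammatory genes, and IRF4 is known for its part in the alternative activation set off by IL-4.

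All cells were wild-type BMDMs from C57BL/6 mice of 8 to 12 weeks, grown for 6 days with M-CSF. In the 1 hr experiment, untreated cells were compared with cells given IL-4 (20 ng/ml) for 1 hr, and the antibodies were against RNA polymerase II phosphorylated at serine 5 (RNAPII-pS5, the initiating form) or serine 2 (RNAPII-pS2, the elongating form), H3K27Ac (a mark of active promoters and enhancers), PU.1, the acetyltransferase p300, and the deacetylases HDAC1, HDAC2, and HDAC3. In the pretreatment (PT) experiment, cells received neither agent (ctrl/ctrl), IL-4 for 24 hr (IL-4 PT/ctrl), LPS (100 ng/ml) for 1 hr (ctrl/LPS), or IL-4 for 24 hr before LPS for 1 hr (IL-4 PT/LPS), and RNAPII-pS5, RNAPII-pS2, and the NF-κB subunit p65 were measured. Each antibody and condition had 2 samples (n = 2 throughout), and the labels do not say that these came from separate animals or cultures, so p-values measure only the spread between these samples. The cultures hold whatever cells grew out in M-CSF, and in such bulk samples fewer cells with a mark and less of the mark per cell cannot be told apart.

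Several facts of the series bear on the IRF genes. The lists held 8440 to 71027 peaks and no reads, so depth is unknown. The p300 list of untreated replicate 1 stood apart with 44787 peaks against 66710 to 69360 in the other 3, and p65 lists grew from 9556 to 11026 peaks without LPS to 26305 and 26820 with LPS and 36738 and 38955 with IL-4 PT/LPS. The peak names of 4 RNAPII-pS2 lists, all from the 1 hr experiment, give each list the other treatment than its sample label does, so these are written as libraries labelled untreated or IL-4 and their direction was not read as an effect of IL-4. The HDAC3 samples list the same antibody number as the H3K27Ac samples, ab4729. All 10 macrophage marker genes had an RNAPII-pS5 peak at their start in at least 1 of 12 lists, with Cd68 and Fcgr1 in every list, and their summed score was 393 to 442.1 in untreated and 335 to 356 in IL-4 cells, and 170.5 to 185 in ctrl/ctrl, 131 to 137 in IL-4 PT/ctrl, 93 to 102 in ctrl/LPS, and 111 to 113 in IL-4 PT/LPS. Whether this shift has a part in the RNAPII-pS5 results was not tested. No B cell, stromal, or dendritic cell marker had one, and of the T cell and neutrophil markers Lck and S100a8 did, with scores of at most 2.63 and 11.2.

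The level of a gene was the sum of the scores of all its peaks in a list. A score is the peak caller's significance on a −log10 scale, and for H3K27Ac the signal of normalised tags. Differences are on a log2 scale after each list was centred on the median gene with a peak in all lists of that antibody, a gene without a peak took the antibody's lowest score, and a gene was called at an adjusted p of at most 0.05 in limma over all genes that had peaks in 2 samples or more. Regions are overlapping peaks of one antibody merged over the samples, named by their distance from the gene's start, with a minus sign for upstream. Where a region had no peak in either sample of a condition, its value was that floor and not a measurement, so the scores are given with no fold. Both samples then share 1 value, and such regions pass the test more easily than regions with measured values. Where a region's only peaks were in the 2 samples of 1 condition, it entered the test through those samples alone. Its p-value then follows in part from how it was selected, and it could not be refitted without either of them.

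The genes differed in where their peaks lay. Irf2 (chr8:46739732-46847458, plus strand, GRCm38) had 565 peaks, of which 435 were in introns and 502 beyond 10 kb from its start. Irf8 (chr8:120736358-120756694, plus strand) had 485 peaks, 339 of them intergenic, and Irf4 (chr13:30749226-30766976, plus strand) had 371, 200 of them intergenic and 316 beyond 10 kb. Downstream of Irf4, the regions between +64 and +85 kb lie in Exoc2, and their assignment to Irf4 rests on distance alone. Irf1 (chr11:53770014-53778374, plus strand) had 338 peaks, split between 159 intergenic, 117 intronic, and 41 promoter peaks. Irf5 (chr6:29526625-29541871, plus strand) had 216 and Irf9 (chr14:55603571-55610030, plus strand) had 93, of which 57 were at the promoter. Irf7 (chr7:141262706-141266481, minus strand) had 123 peaks and none beyond 10 kb, and part of them lie in its neighbours Phrf1 and Cdhr5. Irf3 (chr7:44997648-45002848, plus strand), the factor activated first below the LPS receptor, had 28 peaks in 23 lists and none for PU.1, p300, HDAC2, or HDAC3, with H3K27Ac sums of 242 to 284 and sums of at most 22.9 for the other antibodies. Of the peaks within 1 kb of the Irf2 start, 33 were named Irf2 and 17 were named Gm16675, so Irf2 values leave part of its start out.

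The sequences below belong to regions that the results for Irf2, Irf4, and Irf8 turn on, each 201 bases around the middle of the region's highest peak on the plus strand of GRCm38. Capitals mark matches on either strand to a STAT6-type palindrome (TTCNNNNGAA), a GAS element (TTCNNNGAA, the site of other STAT dimers), an ISRE (GAAA, any 2 bases, GAAA), an ETS-IRF composite (GGAA, any 2 bases, GAAA), which can overlap an ISRE, or the NF-κB consensus. The first 4 are p300 regions that changed with IL-4 for 1 hr.
Irf4 p300 region 34.4 kb upstream (chr13:30714793-30714993), no match: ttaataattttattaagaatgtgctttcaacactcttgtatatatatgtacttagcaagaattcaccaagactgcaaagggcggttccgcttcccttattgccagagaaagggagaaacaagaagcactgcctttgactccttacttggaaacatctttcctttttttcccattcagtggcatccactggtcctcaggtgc
Irf8 p300 region 31.9 kb upstream (chr8:120704391-120704591), STAT6-type match: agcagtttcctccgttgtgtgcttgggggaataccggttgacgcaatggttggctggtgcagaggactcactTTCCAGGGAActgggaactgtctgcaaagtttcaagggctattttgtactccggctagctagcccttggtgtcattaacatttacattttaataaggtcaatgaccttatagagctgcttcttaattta
Irf8 p300 region 20.9 kb upstream (chr8:120715347-120715547), GAS match: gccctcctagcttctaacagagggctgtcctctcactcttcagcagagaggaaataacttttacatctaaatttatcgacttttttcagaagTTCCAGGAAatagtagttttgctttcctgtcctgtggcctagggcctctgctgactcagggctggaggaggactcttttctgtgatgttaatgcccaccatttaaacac
Irf2 p300 region 78.8 kb downstream of the start (chr8:46818490-46818690), no match: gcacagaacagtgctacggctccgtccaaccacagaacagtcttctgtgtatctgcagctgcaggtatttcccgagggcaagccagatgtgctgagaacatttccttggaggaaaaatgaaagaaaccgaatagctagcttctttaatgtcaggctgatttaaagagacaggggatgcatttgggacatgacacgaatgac
The next 4 are p65 regions that differed with LPS or with IL-4 PT before LPS.
Irf8 p65 region 24.8 kb upstream (chr8:120711469-120711669), ISRE match: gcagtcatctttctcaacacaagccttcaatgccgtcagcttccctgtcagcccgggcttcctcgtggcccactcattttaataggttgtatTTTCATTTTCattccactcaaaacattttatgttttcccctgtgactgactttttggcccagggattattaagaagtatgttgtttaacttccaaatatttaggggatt
Irf8 p65 region 10.9 kb upstream (chr8:120725388-120725588), no match: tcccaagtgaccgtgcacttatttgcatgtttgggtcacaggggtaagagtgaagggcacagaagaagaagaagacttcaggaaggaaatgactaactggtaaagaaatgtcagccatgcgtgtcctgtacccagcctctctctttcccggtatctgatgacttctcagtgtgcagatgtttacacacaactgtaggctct
Irf4 p65 region 24.2 kb upstream (chr13:30724948-30725148), ISRE match and then a GAS match: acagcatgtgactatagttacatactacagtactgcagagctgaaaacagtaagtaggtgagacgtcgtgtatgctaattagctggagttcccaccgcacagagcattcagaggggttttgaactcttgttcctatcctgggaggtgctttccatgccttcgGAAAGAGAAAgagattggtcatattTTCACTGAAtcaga
Irf4 p65 region 82.3 kb downstream of the start (chr13:30831424-30831624), NF-κB match: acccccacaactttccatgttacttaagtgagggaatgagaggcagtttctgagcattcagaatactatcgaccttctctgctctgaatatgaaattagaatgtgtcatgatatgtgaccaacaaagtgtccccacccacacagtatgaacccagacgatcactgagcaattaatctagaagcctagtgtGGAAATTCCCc
The last 2 are the 250 bases before the RefSeq starts of the opposing factors Irf1 and Irf2. With LPS, RNAPII peaks named just downstream of the Irf1 start and a p65 peak at the Irf2 start changed.
Irf1 promoter (chr11:53769764-53770013), a GAS match and then an NF-κB match: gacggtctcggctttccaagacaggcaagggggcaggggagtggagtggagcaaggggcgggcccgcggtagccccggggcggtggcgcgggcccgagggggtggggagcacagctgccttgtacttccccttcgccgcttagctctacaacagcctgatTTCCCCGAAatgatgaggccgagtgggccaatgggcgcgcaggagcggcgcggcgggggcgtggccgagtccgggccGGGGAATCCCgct
Irf2 promoter (chr8:46739495-46739744), overlapping ETS-IRF and ISRE matches, then GAS and NF-κB matches: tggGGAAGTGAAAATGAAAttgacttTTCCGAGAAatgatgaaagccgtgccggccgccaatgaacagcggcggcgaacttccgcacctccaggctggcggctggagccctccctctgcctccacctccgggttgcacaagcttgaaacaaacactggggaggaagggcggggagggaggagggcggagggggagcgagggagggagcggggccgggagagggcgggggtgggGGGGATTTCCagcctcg

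A STAT6-type match was in 7 of 87 p300 regions of the IRF genes and in 10.2% of all 81224 p300 regions of the same width, and an NF-κB match in 13 of 73 p65 regions of the IRF genes and in 10.9% of 51410. An ETS-IRF match was in 7 of the 87 p300 regions against 6.32% of all. In the 250 bases before the start, a GAS match was in 3 of the 8 IRF genes against 7.18% of 27025 promoters, an NF-κB match in 2 against 3.75%, an ISRE and an ETS-IRF match in 1 each against 3.04% and 2.38%, and a STAT6-type match in none against 5.87%. These matches are letters in a window and not measured sites.

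The first comparison asked which IRF genes carried more or less of each mark or factor after IL-4 for 1 hr. H3K27Ac rose at Irf7, Irf4, and Irf1 and fell at Irf8, p300 and PU.1 rose at Irf4, and HDAC3 rose at Irf2. No IRF gene was called for RNAPII-pS5, HDAC1, or HDAC2. By the role of the protein, the interferon amplifier Irf7 and the alternative activation factor Irf4 had the largest H3K27Ac gains.

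**Figure D1:**
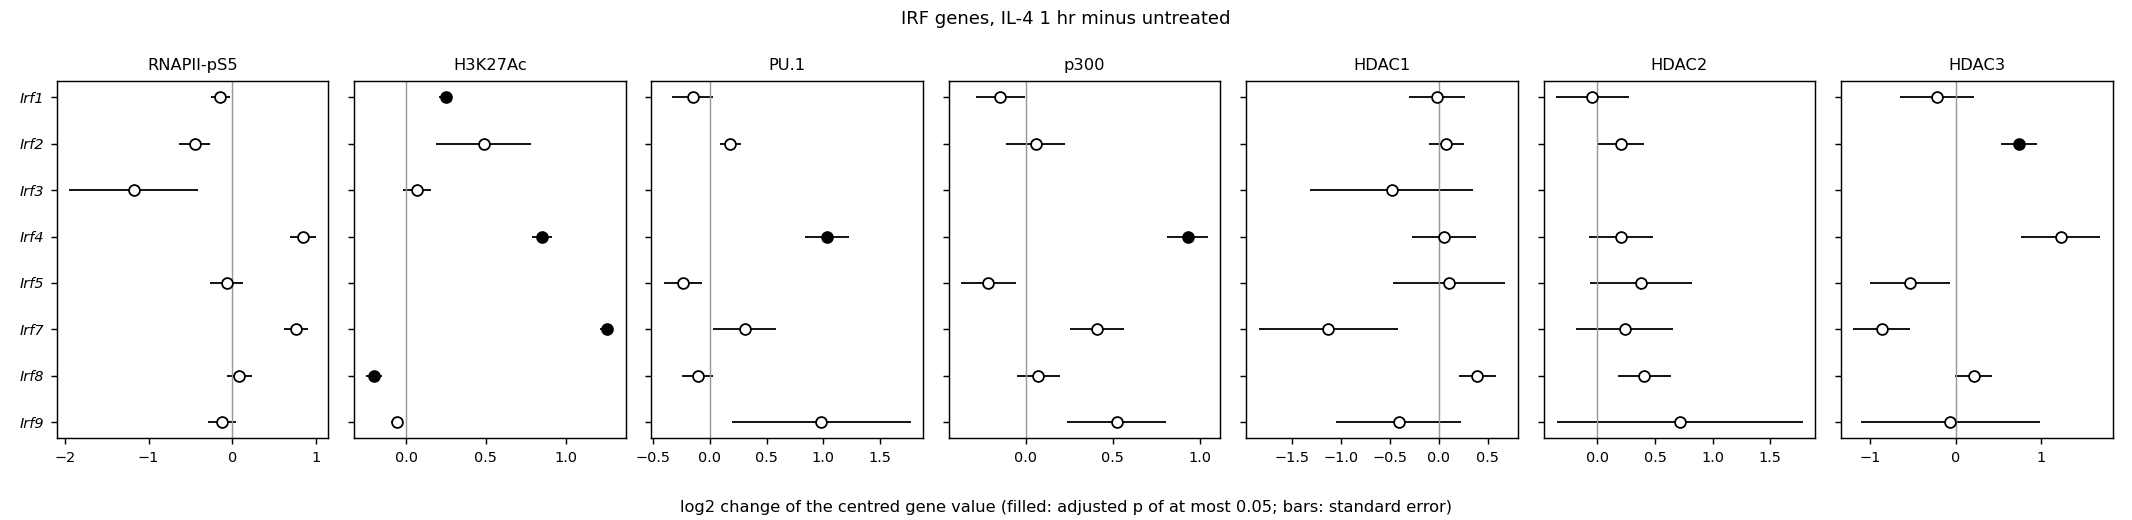
Log2 change of each IRF gene after IL-4 for 1 hr (IL-4 minus untreated, centred), in 1 panel for each of 7 antibodies. Points are the difference of group means with its SE (n = 2 per group), filled where the limma adjusted p was at most 0.05. The H3K27Ac points of Irf7 (1.26) and Irf4 (0.85) and the p300 (0.93) and PU.1 (1.03) points of Irf4 are filled and above 0, and that of H3K27Ac at Irf8 (−0.20) is filled and below it.

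For H3K27Ac, 4 of the 7 IRF genes fitted were called, against 36.2% of all genes, and their median change was 0.25 against −0.01 over all genes. Irf7 had a summed signal of 175 and 172 in the untreated samples and of 416 and 408 in the IL-4 samples. The groups stood far apart, and the log2 change was 1.26 ± 0.040 (SE, limma adjusted p = 4.42e-04). Irf4 had 244 and 265 untreated and 457 and 456 with IL-4 (0.85 ± 0.060, limma adjusted p = 0.00238), again with no overlap. Irf1 rose from 1011 and 968 to 1147 and 1194 (0.25 ± 0.042, limma adjusted p = 0.0173), and Irf8 fell from 962 and 910.1 to 837 and 786 (−0.20 ± 0.048, limma adjusted p = 0.0411). The groups did not overlap at either gene, but these 2 changes were small. The Irf1 call was lost without untreated replicate 2 or IL-4 replicate 2 (adjusted p of 0.0531 to 0.0580), and the Irf8 call without any 1 of the 4 samples (0.0511 to 0.111). Irf2, Irf3, and Irf9 were not called (0.49, 0.07, and −0.06), and Irf5 had no H3K27Ac region assigned to it.

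By region, 11 H3K27Ac regions of the IRF genes rose and 4 fell of 30 tested, against 43.4% of all regions called. At Irf4 the region at −34.5 kb rose from 36.8 and 42.5 to 166 and 170.4 (2.14, limma adjusted p = 5.71e-04), that at +0.4 kb in the gene from 24.9 and 26.9 to 77.1 and 59 (1.43), and that at +85.3 kb from 29.2 and 34.7 to 61.3 and 66.3. The region at −4.7 kb went the other way and had signals of 18.7 and 24.4 in untreated cells and no peak with IL-4 (limma, adjusted p = 0.0102). Between these, the region at −10.8 kb rose (0.68, limma adjusted p = 0.0137). Irf4 thus gained the mark at its start, upstream at −34.5 and −10.8 kb, and downstream at +85.3 kb, and had no peak with IL-4 at −4.7 kb. p300 at −4.6 kb was higher with IL-4 (0.76, limma adjusted p = 0.00984), a call lost without either IL-4 replicate. At Irf7, the region at +0.3 kb rose from 99.8 and 100.6 to 212 and 204 (1.10, limma adjusted p = 5.88e-04), and that at −2.7 kb, in Cdhr5, from 74.9 and 70.9 to 204 and 204 (1.54). Inside Irf2, the regions at +38.7 kb (139 and 131 to 349 and 374, a change of 1.47) and +78.5 kb (157 and 142 to 271 and 250, a change of 0.85) rose. These are intronic regions of a gene that as a whole was not called. At Irf8, the region at −10.9 kb fell from 35.3 and 40.3 to 19.9 and 22.2 (−0.79, limma adjusted p = 0.0137), a call lost without untreated replicate 2 (adjusted p = 0.0515). Of the 15 regions called, 10 kept their call without any 1 sample, among them those named here at −34.5, −10.8, +0.4, and +85.3 kb of Irf4 and both of Irf7 and of Irf2.

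For p300, 1 of 7 IRF genes was called against 20% of all genes, and the median change was 0.07 against −0.02. Irf4 had summed scores of 131 and 458 in the untreated samples and 855 and 827 with IL-4, a change of 0.93 ± 0.12 after centring (limma, adjusted p = 0.00154). Without untreated replicate 1, the list that stood apart, the change was 0.87 and the call held. It was lost without centring (1.78, limma adjusted p = 0.651) and with intergenic peaks left out (0.55, limma adjusted p = 0.0532). Irf7 had 56.6 and 148 untreated and 219 and 219.8 with IL-4 (0.41, limma adjusted p = 0.0992). Without untreated replicate 1 it was called (0.56, limma adjusted p = 0.00378).

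Under these sums, 16 p300 regions of the IRF genes rose and 3 fell of 77 tested, against 21% of all regions called, so the share of called regions was near that of the genome. The number called depended on the sample left out. It was higher without either untreated replicate and lower without either IL-4 replicate. The region at −34.4 kb of Irf4, printed above, had scores of 13.0 and 46.0 untreated and 316 and 309 with IL-4 (3.003 ± 0.21, limma adjusted p = 1.47e-12). The 2 IL-4 values were several times above both untreated values, and without any 1 sample the change stayed between 2.85 and 3.09. At the same place, PU.1 had 5.14 and 4.15 untreated and 79.3 and 104 with IL-4 (3.96 ± 0.40, limma adjusted p = 0.0167), a call lost without IL-4 replicate 2 (adjusted p = 0.108). HDAC3 had no peak there untreated and 17.4 and 19.6 with IL-4 (limma, adjusted p = 0.0591). RNAPII-pS5 had 5.45 in 1 untreated sample and 29.1 and 24.2 with IL-4 (limma, adjusted p = 0.0515). This region therefore had higher values with IL-4 for 5 antibodies, of which H3K27Ac, p300, and PU.1 passed the test. Further downstream, the p300 region at +26.8 kb had no untreated peak and 34.8 and 23.2 with IL-4 (limma, adjusted p = 0.00111), and that at +85.4 kb in Exoc2 rose from 6.33 and 14.7 to 43.8 and 50.3 (1.61, limma adjusted p = 4.82e-04), a call lost without IL-4 replicate 2 (adjusted p = 0.112).

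Irf8 as a whole had p300 sums of 272 and 811 untreated and 899 and 886 with IL-4, a change of 0.07 after centring that was not called, but its regions moved in both directions. The region at −31.9 kb, whose window holds the STAT6-type match, rose from 4.17 and 10.3 to 121 and 114 (3.50 ± 0.28, limma adjusted p = 2.88e-11). It was also gained in both IL-4 samples and neither untreated sample for RNAPII-pS5 (8.88 and 5.98), PU.1 (14.8 and 12.7), HDAC1 (9.04 and 3.64), and HDAC2 (8.80 and 3.65), with limma adjusted p of 0.0929, 0.404, 0.378, and 0.430. The region at −20.9 kb, with the GAS match, rose from 14.1 and 37.7 to 111 and 109 (1.59, limma adjusted p = 2.05e-06). Its neighbour at −20.1 kb had 30.9 and 75.8 untreated and 29.3 and 36.7 with IL-4 (−1.23 after centring, limma adjusted p = 3.14e-04), and PU.1 peaks there of 6.06 and 9.22 were absent with IL-4. The untreated and IL-4 values overlap before centring at −20.1 kb, where the untreated pair includes the list that stood apart. The region at −10.9 kb likewise had 34.9 and 92.9 untreated and 44.6 and 51.8 with IL-4 (−0.92, limma adjusted p = 0.00304), a call lost without IL-4 replicate 1 (adjusted p = 0.0670). So p300 at Irf8 rose 31.9 and 20.9 kb upstream and, relative to the centre of its lists, fell 20.1 and 10.9 kb upstream, the last where H3K27Ac also fell.

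**Figure D2:**
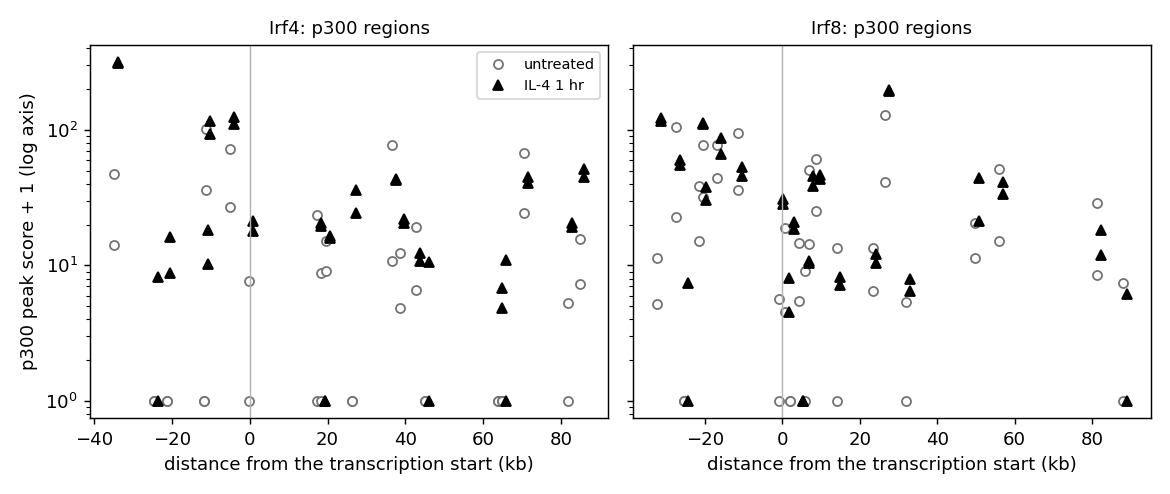
p300 peak scores plus 1 (log axis) of the regions of Irf4 and Irf8 against their distance from the transcription start (kb), with circles for the 2 untreated samples and triangles for the 2 IL-4 samples. The IL-4 points stand above the untreated points at −34.4 kb of Irf4 (316 and 309 against 13.0 and 46.0) and at −31.9 kb of Irf8 (121 and 114 against 4.17 and 10.3).

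Inside Irf2, the p300 region at +78.8 kb rose from 16.7 and 38.8 to 128 and 135 (1.70 ± 0.22, limma adjusted p = 5.55e-07), at the place of the H3K27Ac gain. The p300 regions called without any 1 of the 4 samples were 5 of the 19, namely −34.4 kb of Irf4, −31.9, −20.9, and −20.1 kb of Irf8, and +78.8 kb of Irf2. For p300, 9 of 87 regions of the IRF genes with a peak were gained, against 9.1% of all regions, and 1 was lost, against 690 of all 81230.

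At the starts of the genes, p300 was called at Irf8 and Irf9. At −0.3 kb of Irf8 the scores were 0 and 4.66 untreated and 27.4 and 29.7 with IL-4 (2.84, limma adjusted p = 0.00187), a call lost without either IL-4 replicate (adjusted p of 0.0929 and 0.102). At +0.3 kb of Irf9 they rose from 17.4 and 39.6 to 74.2 and 62.5 (0.70, limma adjusted p = 0.0378), and the call held without untreated replicate 1 and was lost without any 1 of the other 3 samples (adjusted p of 0.0546 to 0.346). Irf4 had 0 and 6.63 and then 20.1 and 16.8 at +0.3 kb (limma, adjusted p = 0.0544), and Irf2 had 56.2 and 142 and then 199.97 and 223 at its start (limma, adjusted p = 0.0583). Irf5, whose product acts below Toll-like receptors, had 66.8 and 142 and then 135 and 136 at +0.1 kb, a change of −0.19 that was not called. The Irf1 start had scores of 6.15 to 15.0, and its p300 lay for the most part at −6.4 kb, with 56.9 and 143 untreated and 130 and 147 with IL-4 (−0.06, not called). At Irf7, p300 at −2.4 kb in Cdhr5 had 43.6 and 116.0 untreated and 188 and 189.7 with IL-4 (0.74, limma adjusted p = 0.0109), next to the H3K27Ac gain, a call lost without either IL-4 replicate (adjusted p of 0.302 and 0.342).

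For PU.1, 1 of 7 IRF genes was called against 1.75% of all genes (median change 0.18 against −0.02). This was Irf4, with 175 and 82.4 untreated and 295 and 305 with IL-4 (1.03 ± 0.19, limma adjusted p = 0.0107), a call lost without either IL-4 replicate (adjusted p of 0.0791 to 0.188). Of 74 PU.1 regions tested, 1 was called, that at −34.4 kb of Irf4, against 0.0735% of all regions. Of 93 regions with a peak, 5 were gained, against 3.59% of all, and 3 were lost, against 2496 of all 107213.

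RNAPII-pS5 was not called at any of the 8 IRF genes, against 1.11% of all genes, and 3 of 8 passed an unadjusted p of 0.05 against 15.8%. Irf4 had 115 and 61.1 untreated and 158 and 134 with IL-4 (0.84 ± 0.16, limma adjusted p = 0.0615), and Irf7 had 89.8 and 51.6 and then 121 and 104 (0.76 ± 0.15, limma adjusted p = 0.0642). At both genes the 2 IL-4 values were above the 2 untreated values. The median over the 8 genes was −0.10 against −0.01. Start regions with RNAPII-pS5 were at +0.2 kb of Irf7 (71.9 and 35.8 untreated, 97.3 and 89.6 with IL-4, limma adjusted p = 0.0609), +0.5 kb of Irf4 (52.3 and 24.5, then 63.8 and 58.0, limma adjusted p = 0.0863), and +0.6 kb of Irf8 (77.5 and 64.3, then 78.2 and 62.5). No region of the 46 tested was called, against 0.389%. Of 57 regions with a peak, 2 were gained, against 3.43% of all, and 3 were lost, against 2046 of all 41245. For RNAPII-pS2, the libraries labelled IL-4 had lower values than those labelled untreated at Irf4 (27.4 and 24.6 against 89.6 and 114, a difference of −1.88 ± 0.22, limma adjusted p = 5.51e-04) and Irf7 (24.3 and 22.2 against 52.9 and 49.4, a difference of −1.06 ± 0.27, limma adjusted p = 0.0462). These were 2 of 8 IRF genes against 3.93% of all, and the Irf7 call was lost without 3 of the 4 samples (adjusted p of 0.0767 to 0.368, for either library labelled untreated and for replicate 2 of those labelled IL-4). The signs are opposite to those of RNAPII-pS5, which was not called, at Irf4, Irf7, Irf2, and Irf3. They are the same at Irf1, Irf5, Irf8, and Irf9. Socs1, a STAT6 target, had 1.79 for RNAPII-pS5 and −5.66 for RNAPII-pS2 by the labels. Whether the labels or the peak names are right was not tested.

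The deacetylases showed few differences. HDAC1 and HDAC2 were called at no IRF gene, against 0% and 0.363% of all genes, and at an unadjusted p of 0.05 also at none, against 7.87% and 9.79%. The median changes over the IRF genes were 0.02 for HDAC1 and 0.24 for HDAC2, against −0.04 and 0.01 over all genes. HDAC3 was called at 1 of 7 against 4.52%, with a median of −0.07 against 0.01. This was Irf2, with 87.4 and 43.6 untreated and 139 and 137 with IL-4 (0.74 ± 0.21, limma adjusted p = 0.0150), a call lost without untreated replicate 2 or either IL-4 replicate (adjusted p of 0.129 to 0.552). Gained regions were 2 of 52 for HDAC1, 5 of 53 for HDAC2, and 3 of 36 for HDAC3, against 2.04%, 5%, and 8.92% of all regions with a peak, so none of these counts was far from its background.

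The PT experiment asked how LPS, IL-4 PT, and their order changed RNAPII and p65 at the IRF genes. RNAPII fell at Irf7 with IL-4 PT in both phosphorylated forms, and in IL-4 PT/LPS cells it was not called lower than in ctrl/LPS cells. RNAPII-pS5 at Irf4 was higher in IL-4 PT/LPS than in ctrl/LPS cells, and p65 was higher at both Irf4 and Irf8 with LPS. The comparisons of ctrl/LPS and of IL-4 PT/ctrl share the ctrl/ctrl samples, and those of ctrl/LPS and of IL-4 PT/LPS share the ctrl/LPS samples, so each is given with its own values.

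**Figure D3:**
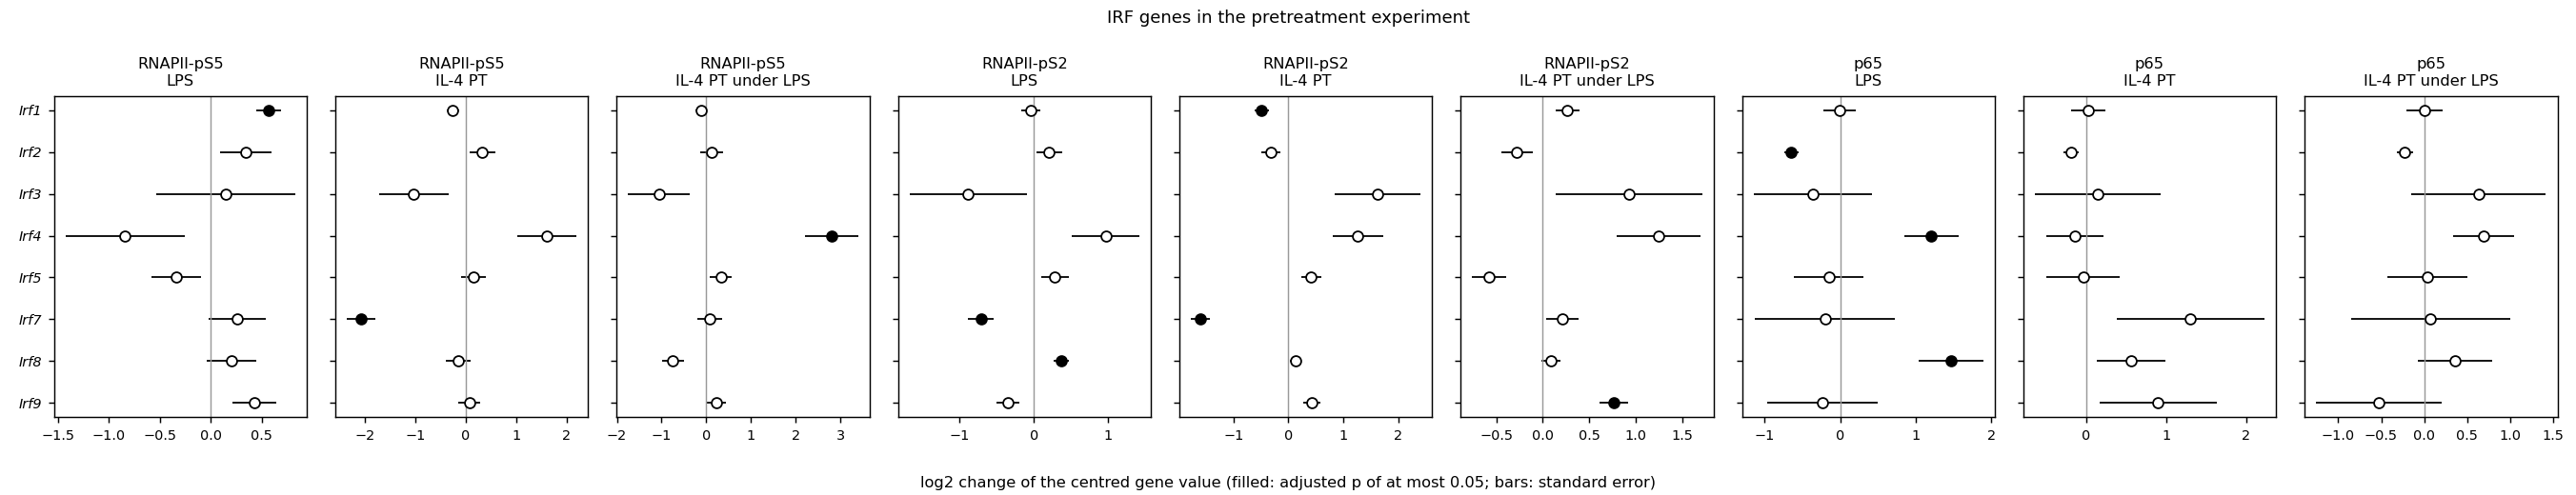
Log2 change of each IRF gene for RNAPII-pS5, RNAPII-pS2, and p65 in 3 comparisons, ctrl/LPS minus ctrl/ctrl, IL-4 PT/ctrl minus ctrl/ctrl, and IL-4 PT/LPS minus ctrl/LPS. Points are differences of group means after centring with their SE (n = 2 per group), filled where the limma adjusted p was at most 0.05, and the Irf7 points under IL-4 PT are filled at −2.07 (RNAPII-pS5) and −1.60 (RNAPII-pS2).

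Irf7, the factor that amplifies type I interferon, had RNAPII-pS5 sums of 52.0 and 65.03 in ctrl/ctrl, 11.1 and 19.1 in IL-4 PT/ctrl, 48.6 and 63.5 in ctrl/LPS, and 72.8 and 69.9 in IL-4 PT/LPS. The IL-4 PT/ctrl pair stood below the 6 other values, and the change from ctrl/ctrl was −2.07 ± 0.28 (limma, adjusted p = 0.00807). Without ctrl/ctrl replicate 2 it was −1.86 and was not called (adjusted p = 0.0610). RNAPII-pS2 at Irf7 was 62.0 and 68.0 in ctrl/ctrl, 20.9 and 19.9 in IL-4 PT/ctrl, 45.4 and 47.1 in ctrl/LPS, and 55.9 and 54.4 in IL-4 PT/LPS. Here too the IL-4 PT/ctrl pair was lowest (−1.60 ± 0.17, limma adjusted p = 0.00196), and this call held without any 1 of the 8 samples. RNAPII-pS2 at Irf7 was also lower in ctrl/LPS than in ctrl/ctrl (−0.71 ± 0.17, limma adjusted p = 0.0188), a call lost without ctrl/ctrl replicate 2 or either ctrl/LPS replicate (adjusted p of 0.0575 to 0.0991), and with the highest score in place of the sum the difference was 0.0027 (limma, adjusted p = 0.994). In IL-4 PT/LPS against ctrl/LPS the changes were 0.08 and 0.21 and were not called.

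The effect of LPS on Irf7 was therefore compared between cells with and without IL-4 PT, as a difference of differences. It was 2.15 ± 0.40 for RNAPII-pS5 (limma, adjusted p = 0.0401) and 1.81 ± 0.25 for RNAPII-pS2 (limma, adjusted p = 0.0196). Irf7 was the 1 IRF gene of 8 called in each, against 5.62% and 5.33% of all genes, with medians over the IRF genes of 0.14 and 0.01 against 0.08 and 0.08. Neither call was firm. For RNAPII-pS5 it was lost without any 1 of the 8 samples (1.78 to 2.53, adjusted p of 0.0861 to 0.107), and for RNAPII-pS2 without any sample but those of ctrl/ctrl (1.68 to 1.91, 0.0541 to 0.0827). The region that carried the fall was at +0.9 kb of Irf7, inside the gene, with RNAPII-pS5 scores of 38.5 and 40.3 in ctrl/ctrl, 7.87 and 9.87 in IL-4 PT/ctrl, 38.1 and 54.9 in ctrl/LPS, and 61.7 and 64.8 in IL-4 PT/LPS (−2.18 ± 0.19 for IL-4 PT, limma adjusted p = 0.00188). This region kept its call without any 1 sample. RNAPII-pS2 at +0.8 kb had 24.5 and 36.8 in ctrl/ctrl and 11.4 and 9.04 in IL-4 PT/ctrl (−1.52, limma adjusted p = 0.0104), a call lost without IL-4 PT/ctrl replicate 2 (adjusted p = 0.0596).

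**Figure D4:**
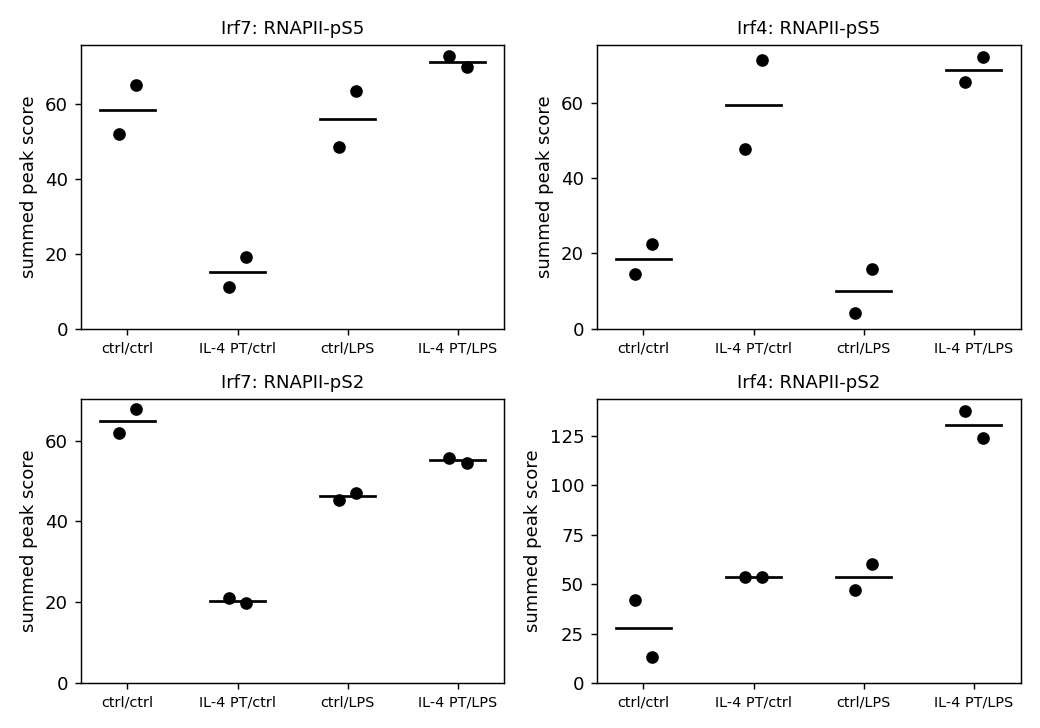
Summed RNAPII-pS5 and RNAPII-pS2 peak scores of Irf7 and Irf4 in the 4 conditions of the PT experiment, with points for the 2 samples and a line at their mean. Irf7 is lowest in IL-4 PT/ctrl (11.1 and 19.1 for RNAPII-pS5), and Irf4 is highest in IL-4 PT/LPS for RNAPII-pS2 (138 and 124).

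Irf4 had RNAPII-pS5 sums of 14.6 and 22.5 in ctrl/ctrl, 47.6 and 71.4 in IL-4 PT/ctrl, 4.12 and 15.8 in ctrl/LPS, and 65.4 and 72.0 in IL-4 PT/LPS. All 4 values with IL-4 PT were above all 4 without it. The change in IL-4 PT/LPS against ctrl/LPS was 2.80 ± 0.59 (limma, adjusted p = 0.0269), and that in IL-4 PT/ctrl against ctrl/ctrl was 1.61 (limma, adjusted p = 0.154). The first was lost without ctrl/LPS replicate 1, either IL-4 PT/ctrl replicate, or either IL-4 PT/LPS replicate (1.82 to 2.87, adjusted p of 0.0524 to 0.109). RNAPII-pS2 at Irf4 was 42.1 and 13.0 in ctrl/ctrl, 53.7 and 53.7 in IL-4 PT/ctrl, 47.2 and 60.1 in ctrl/LPS, and 138 and 124 in IL-4 PT/LPS. The last pair was above the other 6 values, but neither difference was called (1.27 and 1.25, limma adjusted p = 0.0947 and 0.126).

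The regions of Irf4 showed where RNAPII appeared. At +82.2 kb in Exoc2, RNAPII-pS5 had peaks of 8.53 and 7.79 in IL-4 PT/LPS and none in the other 3 conditions (limma, adjusted p = 0.00278), and RNAPII-pS2 had 23.6 and 28.4 in IL-4 PT/LPS and none in the others (limma, adjusted p = 0.00125). At +39.1 kb, RNAPII-pS2 likewise had 16.4 and 16.9 in IL-4 PT/LPS and no peak elsewhere. At −34.8 kb, where p300 and PU.1 rose with IL-4 for 1 hr, RNAPII-pS2 had 9.94 and 11.5 in IL-4 PT/ctrl and 7.01 and 9.01 in IL-4 PT/LPS and no peak without IL-4 PT (limma, adjusted p = 0.00143 and 0.00227). At +18.6 kb the pattern was the same, with 9.06 and 8.40 and with 5.69 and 6.95. RNAPII-pS2 peaks were thus seen after IL-4 PT with or without LPS at −34.8 and +18.6 kb and in IL-4 PT/LPS cells at +39.1 and +82.2 kb. RNAPII-pS5 at +39.1 kb, however, had peaks after IL-4 PT both without LPS (5.52 and 8.12, limma adjusted p = 0.00887) and with it (6.08 and 9.74, limma adjusted p = 0.0112), and none in ctrl/ctrl or ctrl/LPS, calls lost without either ctrl/ctrl replicate for the first and without either ctrl/LPS replicate or IL-4 PT/LPS replicate 2 for the second (adjusted p of 0.0517 to 0.0628). At +70.9 kb RNAPII-pS2 went the other way with IL-4 PT, from 9.20 and 4.76 in ctrl/ctrl to no peak (limma, adjusted p = 0.00727, kept without any 1 sample), and had 23.6 and 20.6 in ctrl/LPS (1.55, limma adjusted p = 0.0198) and 16.6 and 22.0 in IL-4 PT/LPS. The rise with LPS was lost without ctrl/ctrl replicate 2 or either ctrl/LPS replicate (adjusted p of 0.0677 to 0.0894). The regions at −34.8, +18.6, +39.1, and +82.2 kb kept their RNAPII-pS2 calls in IL-4 PT/LPS against ctrl/LPS in every fit without 1 sample that could be made. At +39.1 and +82.2 kb no fit could be made without either IL-4 PT/LPS sample, so their calls were not tested in this way. The same holds for RNAPII-pS5 at +82.2 kb.

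Irf1, the early activator, had RNAPII-pS5 sums of 113 and 90.9 in ctrl/ctrl, 87.5 and 91.1 in IL-4 PT/ctrl, 129.9 and 111 in ctrl/LPS, and 134 and 135 in IL-4 PT/LPS. It was the 1 IRF gene of 8 called with LPS, against 28.4% of all genes (0.57 ± 0.12, limma adjusted p = 0.0159), and was lost without ctrl/ctrl replicate 2 or ctrl/LPS replicate 1 (adjusted p of 0.0524 to 0.0878). Over non-intergenic peaks alone the change turned to −1.11 (limma, adjusted p = 0.0110), so the direction at Irf1 depended on intergenic regions. Left uncentred, the change over all peaks was 0.24 and was not called (limma, adjusted p = 0.218). The summed scores of ctrl/ctrl and ctrl/LPS overlapped, and the centre of these lists itself changed by −0.325 with LPS. By region, the peak at +0.2 kb had 19.4 and 22 in ctrl/ctrl and was absent in both LPS samples (limma, adjusted p = 0.00153), and so was the RNAPII-pS2 peak at +0.1 kb, with 23.7 and 24.1 in ctrl/ctrl. Upstream at −6.6 kb RNAPII-pS5 rose from 52.7 and 42.4 to 75.1 and 63.0 (0.72, limma adjusted p = 0.0180), a call lost without ctrl/ctrl replicate 2 or ctrl/LPS replicate 1 (adjusted p of 0.0572 to 0.103). RNAPII-pS5 in the body at +1.2 kb rose from 8.73 and 5.95 to 19.7 and 20.0 (1.64, limma adjusted p = 0.00900), a call lost without ctrl/ctrl replicate 2 (adjusted p = 0.0524). With LPS, Irf1 thus lost its peak at the start and had higher values upstream and in its body, and in RNAPII-pS2 peaks of 11.3 and 13.6 appeared at +10.9 kb.

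Further calls in RNAPII were at Irf8, Irf1, and Irf9. For RNAPII-pS2, Irf8 rose with LPS from 109 and 111 to 166 and 164 (0.36 ± 0.10, limma adjusted p = 0.0296), a call lost without any 1 of the 4 samples compared (adjusted p of 0.0583 to 0.131) and turned to −1.10 over non-intergenic peaks. With Irf7 it made 2 of 8 called against 32.6% of all genes. With IL-4 PT, RNAPII-pS2 was called at Irf7 and Irf1, 2 of 8 against 19.2%. Irf1 fell from 86.3 and 99.1 to 57.8 and 68.3 (−0.49 ± 0.13, limma adjusted p = 0.0352), a call that held without ctrl/ctrl replicate 1 and was lost without any 1 of the other 7 samples (adjusted p of 0.0556 to 0.153). Irf9, the DNA-binding part of ISGF3, was the 1 of 8 called in IL-4 PT/LPS against ctrl/LPS, against 11.5%, with 39.4 and 33.2 in ctrl/LPS and 66.0 and 60.9 in IL-4 PT/LPS (0.76 ± 0.16, limma adjusted p = 0.0230), and was lost without any 1 of those 4 samples (adjusted p of 0.0733 to 0.116). Its region at −0.2 kb had 32.7 and 29.6 in ctrl/LPS and 52.9 and 49.6 in IL-4 PT/LPS (0.78, limma adjusted p = 0.00516), a call lost without IL-4 PT/LPS replicate 1 (adjusted p = 0.0535). Irf5 was called in none of these comparisons.

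For RNAPII-pS5, the 1 of 8 genes called with IL-4 PT and the 1 of 8 called in IL-4 PT/LPS against ctrl/LPS stood against 9.97% and 12.3% of all genes. The medians over the IRF genes were 0.23 with LPS, −0.04 with IL-4 PT, and 0.10 in IL-4 PT/LPS against ctrl/LPS, where all genes had −0.34, −0.03, and 0.01. For RNAPII-pS2 they were 0.08, 0.27, and 0.24, where all genes had −0.22, −0.02, and −0.03. Over regions of the IRF genes, RNAPII-pS5 rose at 6 and fell at 7 of 34 with LPS, rose at 2 and fell at 5 of 35 with IL-4 PT, and rose at 7 and fell at 1 of 34 in IL-4 PT/LPS against ctrl/LPS, with 35.1%, 19.1%, and 18.9% of all regions called. RNAPII-pS2 rose at 8 and fell at 7 of 47, rose at 9 and fell at 9 of 49, and rose at 10 and fell at 4 of 47, against 39.2%, 27.4%, and 20.8%. For IL-4 PT/LPS against ctrl/LPS, no RNAPII-pS5 region and few RNAPII-pS2 regions kept their call with each sample left out in turn. The other calls were lost in some fit, or the region could not be refitted. For RNAPII-pS5, 9 of 36 regions with a peak were gained in IL-4 PT/LPS against ctrl/LPS, against 11.8% of all, and 6 of the 9 belonged to Irf4.

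RNAPII differed between the upstream regions of Irf8. At −24.9 kb, RNAPII-pS2 had no peak in ctrl/ctrl, 14.6 and 19.6 in IL-4 PT/ctrl, 23.2 and 21.8 in ctrl/LPS, and 46.6 and 41.2 in IL-4 PT/LPS. Both agents alone were called (limma, adjusted p = 8.85e-04 for IL-4 PT and 4.78e-04 for LPS), and IL-4 PT/LPS stood above ctrl/LPS (1.02, limma adjusted p = 0.0214), the last lost without any 1 of the 4 samples (adjusted p of 0.0954 to 0.144). At −10.8 kb the order differed, with 5.51 and 5.43 in ctrl/ctrl, no peak in IL-4 PT/ctrl, 57.0 and 42.5 in ctrl/LPS, and 19.2 and 18.2 in IL-4 PT/LPS. The rise with LPS was 2.98 (limma, adjusted p = 6.81e-04), and IL-4 PT/LPS was below ctrl/LPS (−1.34, limma adjusted p = 0.0128), a call lost without ctrl/LPS replicate 1 or either IL-4 PT/LPS replicate (adjusted p of 0.0774 to 0.0889). RNAPII-pS5 at −10.9 kb had 11.1 and 12.5 in ctrl/LPS and no peak in the other 3 PT conditions (limma, adjusted p = 0.00153 against ctrl/ctrl and 0.00278 against IL-4 PT/LPS).

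p65 peaks were compared to ask where NF-κB bound at these genes. Of 8 IRF genes, 3 were called with LPS against 36.8% of all genes, and the median change was −0.18 against −0.04. All p65 values are relative to a centre that itself rose by 1.64 on the log2 scale with LPS. Irf8 had sums of 10.4 and 27.3 in ctrl/ctrl and 136 and 154 in ctrl/LPS (1.46 ± 0.43, limma adjusted p = 0.0402), a call lost without any sample but ctrl/ctrl replicate 2 (adjusted p of 0.0543 to 0.146). Irf4 had 19.4 and 11.1 and then 108 and 103 (1.20 ± 0.36, limma adjusted p = 0.0420), a call lost without 5 of the 8 samples, ctrl/ctrl replicate 2 and both replicates of ctrl/LPS and of IL-4 PT/LPS (adjusted p of 0.0903 to 0.157). Irf2 had 77.8 and 90.5 and then 165 and 170.2, which rose less than the centre (−0.64 ± 0.093, limma adjusted p = 0.00517). Without centring the direction at Irf2 turned (1.00, limma adjusted p = 7.77e-04), and 5 of the 8 genes were then called, Irf1 (1.63), Irf2 (1.00), Irf4 (2.84), Irf5 (1.49), and Irf8 (3.10), where the median over all genes was 1.60.

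IL-4 PT without LPS left p65 with no IRF gene called, against 7.51% of all genes, and with none at an unadjusted p of 0.05, against 18.1%. In IL-4 PT/LPS against ctrl/LPS, Irf8 had 264 and 262 against 136 and 154 (0.36), and Irf4 had 238 and 244 against 108 and 103 (0.69). Both pairs stood above the ctrl/LPS pair in raw score, yet neither was called after centring, and no IRF gene was, against 12.5% of all genes (26.5% at an unadjusted p of 0.05, again with no IRF gene). For the difference of the LPS effect with and without IL-4 PT, none was called against 6.6%, or 22.9% at an unadjusted p. The medians over the IRF genes in these 3 comparisons were 0.09, 0.06, and −0.03, where all genes had 0.15, 0.15, and 0.05.

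By region, p65 rose at 21 and fell at 3 of 46 regions of the IRF genes with LPS, against 39.8% of all regions called, and 20 of 48 regions with a peak were gained, against 36.1%. With IL-4 PT alone 1 of 25 was called against 10.1%, at +27 kb of Irf8, with no peak in ctrl/ctrl and 4.95 and 5.94 in IL-4 PT/ctrl (limma, adjusted p = 0.0119), a call lost without either ctrl/ctrl replicate (adjusted p of 0.0637 and 0.0640). In IL-4 PT/LPS against ctrl/LPS, 15 rose and 3 fell of 55, against 31.3%, and 10 of 71 were gained, against 15.4%. Hardly any of these calls held with each sample left out in turn, since the call was lost or the region could not be refitted.

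**Figure D5:**
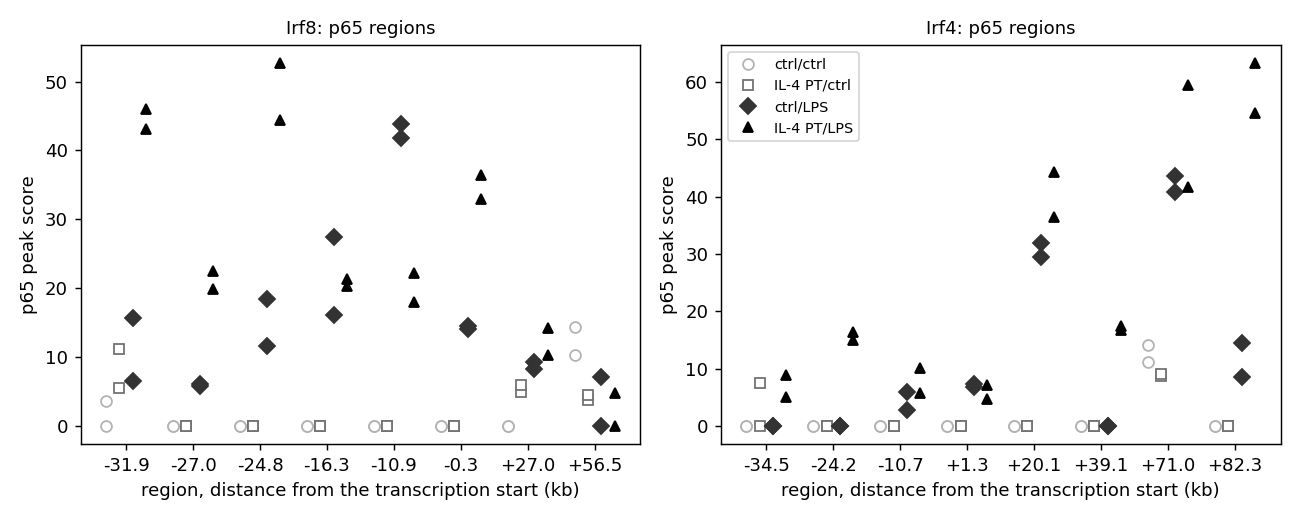
p65 peak scores in the 4 conditions of the PT experiment for the 8 regions of Irf8 and of Irf4 with the highest mean score, with 1 point per sample and regions named by their distance from the transcription start (kb). The −10.9 kb region of Irf8 is highest in ctrl/LPS (43.8 and 41.9), and the +82.3 kb region of Irf4 in IL-4 PT/LPS (63.3 and 54.6).

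At Irf8 the p65 regions at −24.8, −16.3, −10.9, and −0.3 kb had no peak without LPS and kept their call with LPS without any 1 sample. The region at −10.9 kb had 43.8 and 41.9 in ctrl/LPS and 17.95 and 22.2 in IL-4 PT/LPS (−1.37 ± 0.20, limma adjusted p = 0.00374), a call lost without IL-4 PT/LPS replicate 1 (adjusted p = 0.0662). The region at −20.2 kb had 4.84 and 12.4 in ctrl/LPS and no peak in the other 3 conditions (limma, adjusted p = 0.00456), a call lost without either IL-4 PT/LPS replicate (adjusted p of 0.0707 and 0.0721). Other regions went the opposite way. The region at −15.4 kb had no peak in ctrl/LPS and 9.22 and 11.8 in IL-4 PT/LPS (limma, adjusted p = 3.23e-04). The region at −24.8 kb had 18.5 and 11.7 in ctrl/LPS and 44.4 and 52.7 in IL-4 PT/LPS (1.45 ± 0.28, limma adjusted p = 0.0113), and that at −0.3 kb, just before the start, had 14.5 and 14.1 and then 32.9 and 36.4 (1.01 ± 0.19, limma adjusted p = 0.0106). The calls at −24.8 and −0.3 kb were lost without either IL-4 PT/LPS replicate (adjusted p of 0.0770 to 0.104). The region at −27 kb rose from 6.04 and 5.88 to 19.8 and 22.5 (1.56 ± 0.19, limma adjusted p = 0.00196) and kept its call without any 1 sample. In IL-4 PT/LPS against ctrl/LPS, p65 was thus lower at 2 regions of Irf8, −20.2 and −10.9 kb, the last where RNAPII-pS2 was also lower, and higher at 7, among them −27, −24.8, −15.4, and −0.3 kb.

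At Irf4, p65 at +82.3 kb had no peak without LPS, 14.5 and 8.51 in ctrl/LPS, and 63.3 and 54.6 in IL-4 PT/LPS (2.13 ± 0.31 between the last 2, limma adjusted p = 0.00374), a call lost without IL-4 PT/LPS replicate 1 (adjusted p = 0.0598). The regions at −24.2 kb (15.0 and 16.4) and +39.1 kb (16.7 and 17.5) had a p65 peak in both IL-4 PT/LPS samples and in no other (limma, adjusted p = 3.21e-04 for each). These regions entered the test through those samples alone. The region at +20.1 kb had 29.4 and 31.9 in ctrl/LPS and 36.5 and 44.2 in IL-4 PT/LPS and no peak without LPS (limma, adjusted p = 4.13e-04 for LPS). At +39.1 and +82.2 kb RNAPII-pS2 also had peaks in IL-4 PT/LPS cells, as it did at other regions of Irf4.

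Among the other genes, Irf1 gained p65 with LPS at −8.6 kb (18.3 and 17.3), +12.9 kb (9.24 and 7.01), and +26.5 kb (13.4 and 9.24), each without a peak in ctrl/ctrl and each called without any 1 sample. Irf2 gained a region at +71.8 kb (24.0 and 25.2, limma adjusted p = 4.64e-04), while its start had 33.8 and 36.1 in ctrl/ctrl and 22.7 and 34.5 in ctrl/LPS (−1.37 relative to the centre, limma adjusted p = 0.00709). Irf5 had a peak at −0.1 kb of 5.52 and 5.84 in ctrl/LPS and of 10.1 and 12.1 in IL-4 PT/LPS, with none in ctrl/ctrl or IL-4 PT/ctrl, and the call with LPS was lost without either ctrl/ctrl replicate (adjusted p of 0.0662 and 0.0692). Irf7, Irf9, and Irf3 had p65 sums of at most 14.3, 8.66, and 8.94 in any list.

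The genes that IRF proteins act on and act with were described from 4 lists. Of the 31 IRF target genes fitted for RNAPII-pS5, interferon-stimulated genes for the most part, 15 rose and none fell with LPS, against 28.4% of all genes called (median 1.63 against −0.34 over all genes), among them the guanylate-binding protein gene Gbp5 (3.91) and the peptide transporter gene Tap1 (3.58). With IL-4 PT none rose and 9 fell, against 9.97% called (median −1.22 against −0.03), led by the antiviral genes Ifit3 (−3.75), Rsad2 (−3.64), Ifit1 (−3.53), and Oas3 (−3.44). In IL-4 PT/LPS against ctrl/LPS 3 fell, against 12.3% called (median −0.34 against 0.01), Ifi44 (−2.78), Cxcl11 (−1.93), and Isg20 (−1.82). For RNAPII-pS2, 9 rose and 1 fell with LPS, 10 fell and none rose with IL-4 PT, and none was called in IL-4 PT/LPS against ctrl/LPS, where 32.6%, 19.2%, and 11.5% of all genes were called. Irf7 fell in both forms of RNAPII in the same comparison with IL-4 PT, and a link between Irf7 and these target genes was not tested.

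Among the 14 genes of ISGF3 and the interferon receptors, p300 after IL-4 for 1 hr rose at 4 and fell at 1, against 20% of all genes called, with Socs1, an inhibitor of JAK kinases, at 2.31 and Stat2, the partner of IRF9, at 2.10. RNAPII-pS5 with IL-4 PT rose at 1, Socs1 (2.56), and fell at 2, among them the receptor gene Ifnar2 (−1.03), against 9.97% of all genes called. Among the 17 genes fitted of the pathways that activate IRF proteins, RNAPII-pS5 with IL-4 PT fell at 1, the RNA sensor gene Ddx58 (−2.72), and with LPS rose at 3 and fell at 2. All genes had 9.97% and 28.4% called, so neither count was far above its background. Among the 11 partner genes fitted, p300 rose at 4, against 20%, after IL-4 for 1 hr, led by Ikzf1 (0.96) and Batf3 (0.95), and none fell. These lists were chosen with results of the series known, and their counts describe these samples only.

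The 3 genes most like each IRF gene across the 8 RNAPII-pS5 lists of the PT experiment were found by Pearson's r of centred log2 values over the 5014 genes with a peak in all 8. They were Clec4e (0.987), Lmo4 (0.978), and Olfr433 (0.977) for Irf1, Exoc1 (0.941), B9d2 (0.934), and Thrap3 (0.932) for Irf2, and Mrps33 (0.967), Arl15 (0.963), and Uqcrfs1 (0.954) for Irf4. For Irf5 they included Rnf41 (0.940) and Klhl9 (0.937), and they were for Irf7 Tada3 (0.970), Chst11 (0.969), and Oas1g (0.968), for Irf8 Bend6 (0.951), 1700018C11Rik (0.924), and Sh2d4a (0.907), and for Irf9 Mill2 (0.987), Mirlet7i (0.969), and Cdv3 (0.959). The 8 points fall in 4 pairs and share their lists with all other genes, and these values are given as a description.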

How the data were processed

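ChIP-seq peak lists of 56 samples were analysed, 2 for each antibody and condition, grouped by the sample labels. The submitters' processing notes name BWA 0.7.10, SAMtools 0.1.19, HOMER 4.2, and MACS2 2.0.10 with mm10, and the peaks of each sample were called separately. For all antibodies but H3K27Ac, the deposited peak score is a −log10 of a p- or q-value from MACS2, a type inferred from the values, and the authors stated a q-value cut-off of 0.01. For H3K27Ac, the deposited value is a signal of normalised tags from HOMER. Scores of the −log10 type rise with depth, which is unknown, and no counting error can be given.

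Scores were summed per gene name as deposited, missing genes took the lowest score of the antibody, and log2 values were centred on the median gene present in every sample. limma 3.58.1 (R 4.3.3, empirical Bayes with a trend) was fitted over all samples of an antibody and experiment, for genes that had peaks in 2 samples or more, with Benjamini-Hochberg adjustment over all genes and a call at 0.05. Peaks were merged into regions at 1 bp of overlap and fitted likewise, and a region was tested where at least 1 sample of the 2 conditions had a peak. Results in the 1 hr and PT experiments came from separate fits. The fit was run on data simulated from the gene levels of PU.1 and p65, with the same spread for every gene. This does not show how it performs at the measured spread or with shared floor values. Coordinates are GRCm38, the build of mm10, with GENCODE vM21 genes. All 8 promoters matched a RefSeq entry (GRCm38.p6). Python 3.11.15, pandas 2.3.3, and NumPy 2.4.6 were used.

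The IRF genes, the lists, and the rule for names were chosen with earlier results of these data known. The rule named all members, the region nearest each start, the distal region of highest mean score, regions gained or lost in both samples, up to 4 called genes per list, and the 3 genes most like each member, and the text gives a selection of these regions. Results for some genes outside the family are not reported here. Regions named for being called, and all printed sequences, were chosen after their values were seen. Alternatives were no centring, an unadjusted p, a floor 4 times as high, the highest score in place of the sum, non-intergenic peaks, filters on peaks or genes, a replicate block, and leaving out each sample. The regions of p300 without untreated replicate 1 were added after seeing the data.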

Additional observations from a re-analysis of the deposited data

Results flagged for a closer look

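The effect of LPS on Irf7 differed between cells with and without IL-4 PT, by a test of that difference. It was 2.15 for RNAPII-pS5 (limma, adjusted p = 0.0401), with an LPS effect of 0.26 without IL-4 PT, and 1.81 for RNAPII-pS2 (limma, adjusted p = 0.0196), with an LPS effect of −0.71 without IL-4 PT. Both IL-4 PT/LPS samples were above both IL-4 PT/ctrl samples in each. The first call was lost without any 1 of the 8 samples, and the second without any 1 of the 6 outside ctrl/ctrl.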

How the results depend on the processing

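The counts of IRF genes called at an adjusted p of at most 0.05 by limma were recomputed under each alternative, and the cause of each change was not tested. Without centring, the count in the 1 hr experiment went to 0 for RNAPII-pS2, PU.1, p300, and HDAC3 and to 3 of 4 for H3K27Ac, the RNAPII-pS5 count for ctrl/LPS against ctrl/ctrl went from 1 to 0, and the p65 count from 3 to 5. With the highest score in place of the summed score, the 1 hr counts were 1 for RNAPII-pS2, 0 for PU.1, 3 for p300, and 0 for HDAC3, that of RNAPII-pS5 for IL-4 PT/LPS against ctrl/LPS was 0, and that of the RNAPII-pS2 interaction was 2. With intergenic peaks left out, the counts were 1 for RNAPII-pS2 and 0 for PU.1 and p300 at 1 hr, 0 for RNAPII-pS5 in IL-4 PT/LPS against ctrl/LPS and in the interaction, 4 for RNAPII-pS2 in ctrl/LPS against ctrl/ctrl, and 2 in IL-4 PT/LPS against ctrl/LPS. With a floor 4 times as high, RNAPII-pS5 had 2 called genes at 1 hr, in ctrl/LPS against ctrl/ctrl, and in IL-4 PT/LPS against ctrl/LPS, and p65 had 5 for LPS. Among genes with a peak in every sample, the counts were 2 for RNAPII-pS5 at 1 hr, in IL-4 PT/ctrl against ctrl/ctrl, and in IL-4 PT/LPS against ctrl/LPS, and 2 for RNAPII-pS2 in IL-4 PT/LPS against ctrl/LPS and in the interaction. Among genes with a peak in any sample the RNAPII-pS5 interaction had 0, and with peaks scoring at least 2 RNAPII-pS5 at 1 hr had 1 (H3K27Ac was not run with that score limit). In the upper 50% of peaks the RNAPII-pS5 counts were 1 at 1 hr, 2 for IL-4 PT/ctrl, and 0 for the interaction, and the RNAPII-pS2 counts were 1 for LPS, 0 for IL-4 PT/LPS against ctrl/LPS, and 0 for the interaction. At an unadjusted p of at most 0.05 the 1 hr counts were 3 for RNAPII-pS5, 4 for RNAPII-pS2, 2 for p300, 3 for HDAC3, and 0 for HDAC1 and HDAC2, those of RNAPII-pS5 were 2 for IL-4 PT/ctrl and 2 for IL-4 PT/LPS against ctrl/LPS, and those of RNAPII-pS2 were 4, 3, and 3 for IL-4 PT/ctrl, IL-4 PT/LPS against ctrl/LPS, and the interaction.

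When each sample was left out in turn, the 1 hr counts ranged from 0 to 2 for RNAPII-pS5, 1 to 2 for RNAPII-pS2, 2 to 3 for H3K27Ac, 0 to 1 for PU.1, 1 to 4 for p300, and 0 to 2 for HDAC3. In the PT experiment they ranged from 0 to 2 for RNAPII-pS5 in ctrl/LPS and in IL-4 PT/ctrl, 0 to 1 in IL-4 PT/LPS, and were 0 in every such fit for its interaction, against 1 with all samples. For RNAPII-pS2 they ranged from 0 to 2 in ctrl/LPS, 1 to 3 in IL-4 PT/ctrl, 0 to 2 in IL-4 PT/LPS, and 0 to 1 in the interaction, and for p65 from 1 to 2 in ctrl/LPS and 0 to 1 in IL-4 PT/ctrl and in IL-4 PT/LPS. The lone sample left in a group was assumed to vary like the other groups.

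The 38 results for single genes taken here had a limma unadjusted p of at most 0.05 and include results that were not called. Among them, 446 of 574 recomputed values kept their direction and their side of the threshold, so a result that stayed uncalled counts as kept. Another 27 were newly called, 95 were no longer called, and 6 changed direction. The 95 come from the called results alone, so their share among called results is higher than 95 of 574. With intergenic peaks left out, the log2 difference was -0.34 for Irf4 HDAC3, -1.11 for Irf1 RNAPII-pS5 with LPS, and -1.10 for Irf8 RNAPII-pS2 with LPS. With the highest score it was 0.0027 for Irf7 RNAPII-pS2 with LPS and -0.058 for the Irf1 RNAPII-pS2 interaction, and without centring it was 1.00 for Irf2 p65 with LPS. The replicate numbers did not pair the samples, since deviations of same-numbered samples correlated by -0.0272 to 0.066. With the replicate block the counts were 2 for RNAPII-pS5 at 1 hr and 0 for the RNAPII-pS5 interaction, and the block changed no other count. The files hold peaks above the caller's threshold, so a region without a peak may still hold reads.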
